A study of Mus musculus with 8 samples.

Results

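The methionine and S-adenosylmethionine (SAM) cycle genes described here are 9 genes out of 39017 in the gene table: Mat2a, Mat2b, Ahcy, Ahcyl1, Ahcyl2, Mtr, Mtrr, Mtap and Mettl16. They were taken by symbol for their roles in making SAM, in its regulation through intron retention, and in salvage, and each symbol matched 1 gene. They were measured by RNA-seq in iGBs, which are splenic B cells induced into a germinal center-like state on irradiated 40LB fibroblasts that express CD40L and BAFF, here with 1 ng per mL IL-4 and harvested by elutriation at day 4. Prmt5-null iGBs carried the floxed allele and the Cre driver (Prmt5F/F Cγ1-cre), whereas control iGBs carried Cγ1-cre alone, all on a C57BL6/J background. Each genotype had 4 biological samples, each from 1 mouse, in libraries PRMT5-10617, PRMT5-10618, PRMT5-10770 and PRMT5-10771 for Prmt5-null and CTRL-10650 and CTRL-10370, then CTRL-10596 and CTRL-10597, for control. Values per library are given in this order below. The Cγ1-cre driver acts once B cells are activated and transcribe the γ1 constant region, so that excision happens during the culture. The study used mice of both sexes aged 2 to 4 months, and no age or sex is tied to a single library.

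SAM is the methyl donor for nearly all cellular methyltransferases, including Prmt5, which places symmetric dimethyl groups on arginines. Methionine adenosyltransferase makes SAM from methionine and ATP; each methyl transfer leaves S-adenosylhomocysteine (SAH), which is split into adenosine and homocysteine, and homocysteine is methylated back to methionine. A side branch uses SAM for polyamine synthesis and leaves methylthioadenosine (MTA), which is salvaged to methionine and which is known to inhibit PRMT5 when it accumulates. In mammalian cells short of SAM, METTL16 stays bound to hairpins in the 3′ UTR of Mat2a RNA and favours splicing of its last intron, whereas in SAM-replete cells this intron tends to be retained in the nucleus.

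The libraries were similar in depth, with 47174851, 42752293, 43242655 and 46749607 reads on genes in Prmt5-null iGBs, and 41629143, 50366174, 48664766 and 36731721 in control iGBs. The 9 genes were all well covered, since the lowest value behind any of them was 1625 reads and the highest 12527. Counting error alone would give a coefficient of variation of 1.02% for Mat2a and 2.26% for Mtrr, the most and the least covered of the 9. Below, levels are normalized counts (reads divided by the size factor of the library), and a gene was called when limma gave an adjusted p below 0.05 over the 16250 genes with a mean of at least 10.

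The genotype labels were checked on the targeted gene, and markers of cell types were read beside it. Prmt5 had 1291, 1994, 1060 and 1808 normalized counts in the 4 Prmt5-null libraries and 13088, 11084, 11657 and 11267 in the 4 controls. It was thus far lower in 4 of 4 Prmt5-null libraries, without overlap (log2 fold change -2.98 ± 0.17 SE, adjusted p = 6.14e-06 from limma). Of B cell markers, 2 differed without overlap and are named here after their values were seen. Cd79a had 8137, 8809, 6939 and 8571 normalized counts in Prmt5-null libraries and 14257, 14069, 13565 and 12214 in controls (log2 fold change -0.74, adjusted p = 0.000327 from limma). Cr2 had 570.3, 722, 740.1 and 861 against 307, 445, 371 and 295 (log2 fold change 1.03, adjusted p = 0.00137 from limma). The T cell marker Cd3e was at 0 in all 8 libraries, with Trac the most abundant T cell marker at a mean of 16.4. Among 5 markers of the germinal center-like state, Fas and Cxcr4 were called higher (log2 fold changes 0.47 and 0.47, adjusted p = 0.00504 and 0.0095 from limma), and the most abundant, Ighg1, was higher in 4 of 4 Prmt5-null libraries without being called (adjusted p = 0.0945 from limma). The sums of the 5 were 73340, 77775, 71378 and 78108 normalized counts in Prmt5-null libraries and 66060, 58609, 63172 and 63911 in controls, without overlap.

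Markers of other cell types were then summed per library. The summed level of 10 fibroblast markers was 15706, 8104, 12338 and 10915 normalized counts in the Prmt5-null libraries and 9621, 5394, 6159 and 7138 in the controls, and 4 of the 8 that could be tested were called higher. Thbs1 was the most abundant of them, with 6294 normalized counts in library PRMT5-10617, its highest value. The sum of Prmt5-null library PRMT5-10618 lay below that of control library CTRL-10650. Of 6 myeloid markers, with sums of 171, 259, 298 and 248 against 162, 215, 144 and 109, 1 of 3 tested was called higher, the most abundant one, Emr1. Of 5 plasma cell markers, Xbp1, the most abundant, and Prdm1 were called lower, whereas Irf4 (log2 fold change 0.19, adjusted p = 0.134 from limma) was higher in 4 of 4 Prmt5-null libraries than in any control without being called. Fas, Cxcr4, Prdm1 and Irf4 were named after their values were seen. The plasma cell sums, 40893, 45352, 37685 and 43008 normalized counts in Prmt5-null libraries, overlapped those of the controls at 54028, 41182, 58366 and 48383. The part of feeder cells or other cells in the levels of the 9 genes was not tested. In such bulk cultures, fewer cells of a type and less RNA per cell cannot be told apart.

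Across the whole table limma called 2249 of 16250 genes (13.8%), of which 1058 were higher in Prmt5-null iGBs (6.51%) and 1191 lower (7.33%). Of the 9 methionine and SAM cycle genes, 2 were called higher, Mettl16 and Ahcyl2, and 1 was called lower, Mat2a, while the other 6 were not called. The 4 and 4 libraries did not overlap for these same 3 genes, a separation that 19.8% of all tested genes also showed. With a minimum change of 1.5-fold, which 6.48% of genes passed, Mettl16 alone remained of the 9 in this fit. Ahcyl2 lay at the edge and passed with edgeR and DESeq2. The median log2 fold change of the 9 was -0.03, next to 0.00 over all tested genes, with members on both sides of it, and the 9 genes were not tested as a group. The whole-table counts fell to 639 higher and 735 lower without Prmt5-null library PRMT5-10771, and the lower calls to 787 without control library CTRL-10596.

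**Figure D1:**
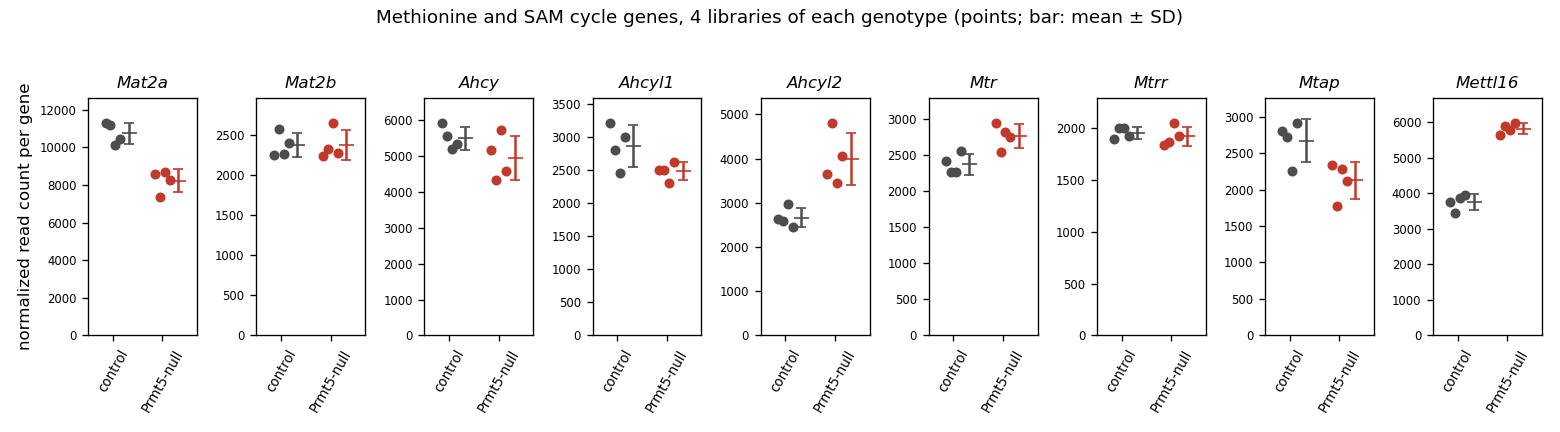
Normalized read counts (vertical axes, each from 0 with its own scale) of the 9 methionine and SAM cycle genes in the 4 control (grey) and 4 Prmt5-null (red) libraries, with mean and SD at the side. The genotypes separate for Mat2a (highest Prmt5-null library 8694, lowest control 10136), Ahcyl2 (lowest Prmt5-null 3453, highest control 2974) and Mettl16 (lowest Prmt5-null 5634, highest control 3961), and overlap for the other 6 genes.

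The first step of the cycle was examined through the catalytic and the regulatory subunit of methionine adenosyltransferase. Mat2a (ENSMUSG00000053907, chr6:72432799-72439558, minus strand, GRCm38) encodes the catalytic subunit that B cells use. It had 8595, 7363, 8694 and 8249 normalized counts in Prmt5-null libraries, and 11292, 11168, 10136 and 10444 in control libraries. The genotypes did not overlap, since the highest Prmt5-null value was under the lowest control value, and PRMT5-10618 was the lowest of all. The means were 8225 ± 606 and 10760 ± 560 (SD, n = 4 mice each), a log2 fold change of -0.39 (95% interval -0.56 to -0.22; adjusted p = 0.00624 from limma). Mat2a thus dropped to 0.764 of its control level, a fall that is larger than the spread between mice but smaller than 1.5-fold.

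Mat2b (ENSMUSG00000042032, chr11:40679314-40695203, minus strand) encodes the regulatory subunit. Its 2241, 2324, 2652 and 2284 normalized counts in Prmt5-null libraries lay within about the same range as the 2255, 2584, 2268 and 2401 of the controls. The log2 fold change was 0.00 with a 95% interval from -0.18 to 0.18 (adjusted p = 0.99 from limma), so that a change of the size of that of Mat2a lies outside the interval. The liver isoform Mat1a had 1.02 normalized counts in library PRMT5-10618 and 0 in the other 7 libraries. Slc25a26, the carrier that brings SAM into mitochondria, had 163 ± 28.7 and 169 ± 23.9 normalized counts (SD, n = 4 each) and was not called. Mat2a was therefore the 1 called gene of the 3 tested in the list of SAM synthesis and transport.

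Since Mat2a is controlled through its RNA, its annotation was examined for what the gene counts can resolve. The gene has 10 annotated transcripts, 3 of them of the retained intron type, and 37.5% of the positions covered by its exons lie in introns of the transcript with the longest coding sequence, ENSMUST00000059472.9. The last intron of that transcript, intron 8 (chr6:72434396-72434980, 585 bp), lies wholly inside an exon of 1 other annotated transcript, ENSMUST00000205335.1. The authors counted reads over the union of known isoforms, and whether ENSMUST00000205335.1 was among these is not known. As sums over the gene, the Mat2a values above do not separate spliced RNA from RNA that keeps this intron. How far either form accounts for the lower level was not tested. A further limit is the antisense transcript Particl, which shares 508 bp (11.3%) of the exonic positions of Mat2a on the opposite strand, and for which the strand setting of the counting was not given in the sources used here. The intronless copy Gm9523 matches 41.5% of the transcript at 95.6% identity, and reads that fit both equally would not have been counted as unique. Neither Particl nor Gm9523 was found among the genes counted, so the authors' annotation differs from GENCODE vM21, from which the transcripts described here come.

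The RNA motif that METTL16 recognizes, TACAGANAA in DNA letters, was searched on the sense strand of annotated 3′ UTRs. Of 21039 genes, each represented by its longest annotated 3′ UTR, 5.66% held at least 1 match and 4 genes held 4 or more. Mat2a held 6, the highest number of any gene in that search, and was the sole gene with 5 or more. The 3′ UTRs of the other 8 genes, from 710 bp in Mat2b to 10767 bp in Mettl16, held none. The 6 matches lie in the last exon of Mat2a, downstream of intron 8, and are shown because they are the sequences through which this RNA is known to be read. They are given 5′ to 3′ from the GENCODE transcript, with the match in capitals and the positions on the minus strand of GRCm38.
Match 1, chr6:72434235-72434263: tggcgtaggtTACAGAGAAgccttcaagc
Match 2, chr6:72433451-72433479: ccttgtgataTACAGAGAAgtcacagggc
Match 3, chr6:72433272-72433300: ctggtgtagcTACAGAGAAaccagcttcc
Match 4, chr6:72433157-72433185: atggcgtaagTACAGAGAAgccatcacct
Match 5, chr6:72433046-72433074: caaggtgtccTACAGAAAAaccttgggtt
Match 6, chr6:72432938-72432966: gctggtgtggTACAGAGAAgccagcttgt
In 5 of them the variable base is G, and in match 5 it is A. In the 1494 bp 3′ UTR of ENSMUST00000059472.9, which is shorter than the longest annotated one of 2178 bp, match 1 starts at base 40 and the others at bases 824, 1003, 1118, 1229 and 1337, so that 5 of the 6 lie in the distal part of this 3′ UTR. A match is a description of the sequence, and binding of METTL16 was not measured here.

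**Figure D2:**
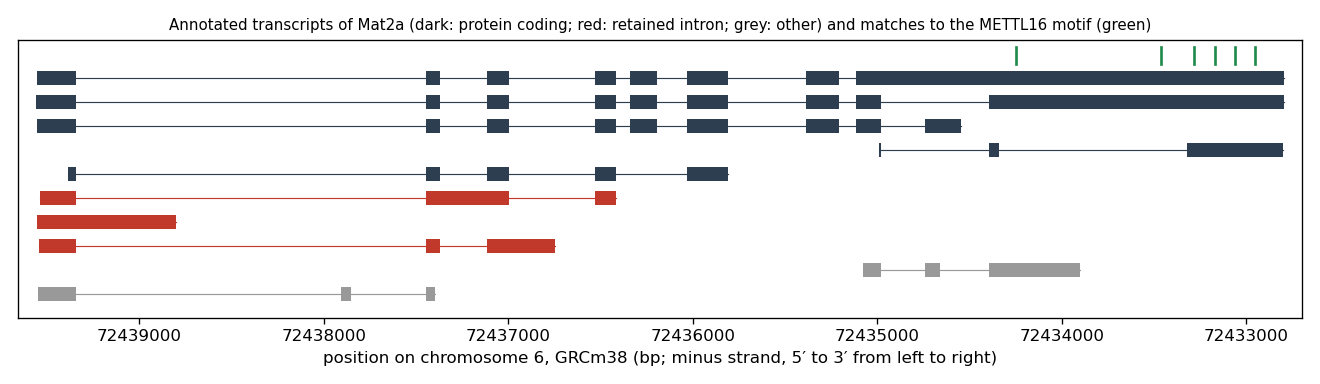
Annotated transcripts of Mat2a drawn to scale along chromosome 6 (GRCm38, horizontal axis in bp, 5′ to 3′ from left to right on the minus strand), with exons as boxes and introns as lines, and the 6 matches to the METTL16 motif as green marks. Match 1 lies just past intron 8, which the topmost transcript keeps within its last exon, and the other 5 lie towards the 3′ end.

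Mettl16 (ENSMUSG00000010554, chr11:74770830-74828525, plus strand) encodes the N6-adenosine methyltransferase of U6 snRNA and of the Mat2a hairpins. It had 5634, 5893, 5788 and 5983 normalized counts in Prmt5-null libraries, against 3748, 3450, 3879 and 3961 in control libraries. The 4 Prmt5-null values lay close together and above each control, with a coefficient of variation of 2.58% next to a median of 8.75% over 501 genes of like level in the same libraries. The means of 5825 ± 150 and 3760 ± 224 (SD, n = 4 each) differed by a log2 fold change of 0.63 (95% interval 0.48 to 0.78; adjusted p = 0.000214 from limma), or 1.55-fold. This was the largest absolute log2 fold change among the 9 genes. The annotated exons of Mettl16 cover 13817 bp, of which the transcript with the longest coding sequence takes 2073 bp, and where the reads fell along them was not analysed here.

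Other genes tied to Mat2a RNA processing were not called. Of the 5 genes in that list, Ythdc1 (a nuclear reader of N6-methyladenosine) and the cleavage factor subunits Nudt21, Cpsf6 and Cpsf7 stayed short of the threshold, and Mettl16 was the 1 called. Cpsf6, the most abundant of the list, had 8150 ± 558 and 8995 ± 557 normalized counts (SD, n = 4 each; adjusted p = 0.242 from limma). The median log2 fold change of the 5 was 0.25.

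Clearance of SAH was next. Ahcy (ENSMUSG00000027597, chr2:155059310-155074497, minus strand) encodes the hydrolase that splits SAH, the product that inhibits methyltransferases. It had 5166, 4337, 5723 and 4581 normalized counts in Prmt5-null libraries and 5925, 5564, 5191 and 5335 in controls, with libraries PRMT5-10617, PRMT5-10618 and PRMT5-10771 below all controls and library PRMT5-10770 above 3 of them. The log2 fold change of -0.16 (95% interval -0.36 to 0.04) did not pass the test (adjusted p = 0.281 from limma).

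The level of Ahcy is uncertain for another reason. Gm4737, a gene with a single exon annotated as protein coding on chromosome 16, matches 81.9% of the Ahcy transcript at 99.7% identity, and the processed pseudogene Gm9826 on chromosome 1 matches 51.1% at 99.2%. Gm4737 had more normalized counts than Ahcy in 8 of 8 libraries, from 5221 to 6997, and Gm9826 had from 2311 to 3136. Of the reads on the 3 genes together, Ahcy took from 35.2% to 37.4% in every library, a share that hardly varied between mice or genotypes. With the reads of both copies added, a comparison chosen after seeing the data, the log2 fold change of Ahcy was -0.15 (adjusted p = 0.331 from limma). Since the share of Ahcy was nearly constant, this sum follows the same course as Ahcy itself and does not tell which of the reads come from it.

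Ahcyl1 and Ahcyl2 encode AHCY-like proteins that resemble the hydrolase and are known as regulators of ion transport and calcium release rather than for splitting SAH. Ahcyl1 (ENSMUSG00000027893, chr3:107663118-107696560, minus strand) had 2509, 2509, 2302 and 2632 normalized counts in Prmt5-null libraries and 3216, 2815, 2466 and 3004 in controls. Control library CTRL-10596 fell within the Prmt5-null range, and the log2 fold change of -0.20 (95% interval -0.40 to -0.01) was not called (adjusted p = 0.159 from limma). Ahcyl2 (ENSMUSG00000029772, chr6:29768011-29912310, plus strand) had 3654, 4805, 3453 and 4051 normalized counts in Prmt5-null libraries and 2635, 2580, 2974 and 2460 in controls. It was higher in 4 of 4 Prmt5-null libraries than in any control, most of all in library PRMT5-10618. Ahcyl2 rose from 2662 ± 221 to 3991 ± 597 (SD, n = 4 each), with a log2 fold change of 0.58, which is 1.49-fold as a difference of mean logs and lies at the edge of the 1.5-fold minimum (95% interval 0.35 to 0.81; adjusted p = 0.00417 from limma). The spread among Prmt5-null mice was wide for a gene of this level, with a coefficient of variation of 14.96% against a median of 8.55% over 501 genes. Of the 23 annotated transcripts of Ahcyl2, 12 are protein coding and 7 are of the retained intron type, and 69.8% of its exonic positions lie in introns of the transcript with the longest coding sequence, so the values do not tell which transcript rose. Ahcyl2 was the 1 called gene of the 5 in the list of SAH and adenosine clearance, since Adk and Ada, which remove adenosine, were not called.

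Remethylation of homocysteine in these cells was represented by methionine synthase and its reductase. Mtr (ENSMUSG00000021311, chr13:12182712-12258113, minus strand), the synthase that takes the methyl group from folate through cobalamin, had 2946, 2544, 2822 and 2755 normalized counts in Prmt5-null libraries and 2418, 2261, 2260 and 2558 in controls. Prmt5-null library PRMT5-10618 lay just below control library CTRL-10597, and the other 3 Prmt5-null libraries lay above all controls. The log2 fold change of 0.22 (95% interval 0.05 to 0.39) missed the threshold with limma (adjusted p = 0.0799) and passed it with DESeq2 (adjusted p = 0.044), within a range from 0.044 to 0.185 over 19 alternatives.

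Mtrr (ENSMUSG00000034617, chr13:68560780-68582149, minus strand), which reduces the cobalamin of the synthase back to its active state, had 1842, 1864, 2049 and 1923 normalized counts in Prmt5-null libraries and 1892, 2002, 1998 and 1926 in controls. The genotypes overlapped throughout, and the log2 fold change was -0.03 (95% interval -0.18 to 0.13; adjusted p = 0.842 from limma). Mtrr was the steadiest of the 9 genes among controls, with a coefficient of variation of 2.78%. The alternative route through betaine was hardly seen, as Bhmt reached 2.37 normalized counts in 1 library and was at 0 in the other 7, and Bhmt2 was at 0 in all 8. Among 8 tested genes of remethylation and cobalamin handling, Abcd4, which exports cobalamin from lysosomes, was the 1 called, from 330 ± 61.4 to 514 ± 46.1 normalized counts (SD, n = 4 each; log2 fold change 0.65, adjusted p = 0.0114 from limma). Mmadhc, the most abundant of them and a trafficking protein for cobalamin, had 2739 ± 258 and 2455 ± 119 normalized counts and was not called.

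Salvage of MTA begins with Mtap (ENSMUSG00000062937, chr4:89137122-89181081, plus strand), the phosphorylase that splits MTA. Mtap had 2332, 1773, 2281 and 2111 normalized counts in Prmt5-null libraries and 2796, 2721, 2248 and 2911 in controls. Control library CTRL-10596 lay within the Prmt5-null range, and the other 3 controls lay above all Prmt5-null libraries. The means were 2124 ± 252 and 2669 ± 292 (SD, n = 4 each), with a log2 fold change of -0.33 (95% interval -0.57 to -0.10) that fell short of the call (adjusted p = 0.0622 from limma). The call depended on the libraries and the tool: the adjusted p was 0.0349 without control library CTRL-10596, 0.0471 without Prmt5-null library PRMT5-10770 and 0.0347 with DESeq2, within a range from 0.0282 to 0.156 over 19 alternatives.

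The enzymes after Mtap did not move as 1 group. Among 6 genes of MTA salvage, Enoph1 rose from 1206 ± 56.1 to 1617 ± 103 normalized counts (SD, n = 4 each; log2 fold change 0.42, adjusted p = 0.005 from limma). Mri1, the isomerase that acts on the product of Mtap, fell from 1274 ± 71.5 to 993 ± 76.9 (log2 fold change -0.36, adjusted p = 0.0171 from limma). The fall of Mri1 was no longer called without Prmt5-null library PRMT5-10771 (adjusted p = 0.0646 from limma, the highest with any library left out) or without control library CTRL-10370. The other 4, with Got1 the most abundant at 3331 ± 387 and 3960 ± 294, were not called, and the median log2 fold change of the 6 was -0.29.

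The order of levels within the cycle was compared per kilobase of annotated exon, since long genes collect more reads. With reads as the authors assigned them, in controls Mat2a was highest, with 2399 ± 125 normalized counts per kb (SD, n = 4), followed by Ahcy with 1962 ± 114 and Mtap with 827 ± 90.4. Their ranges over the 4 libraries did not meet. The place of Ahcy rests on how reads are divided with its copies: with the reads of Gm4737 and Gm9826 added, its total of 13999.6 to 16058 normalized counts in controls and 11869 to 15542 in Prmt5-null libraries would lie above Mat2a in 8 of 8 libraries, on each of the 3 lengths used here, since Ahcy is also shorter on each. Mat2b with 475 ± 30.5, Ahcyl1 with 430 ± 47.6 and Mtrr with 376 ± 10.5 normalized counts per kb followed, and each overlapped its neighbour in this order. Mtr with 279 ± 16.8 and Mettl16 with 272 ± 16.2 overlapped as well, and Ahcyl2 was lowest with 146 ± 12.1 on this length. Among 15966 genes with a length, Mat2a stood at percentile 91.8 and Ahcyl2 at percentile 40.1.

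In Prmt5-null iGBs, on the same length, Mat2a had 1833 ± 135 and Ahcy 1765 ± 221 normalized counts per kb (SD, n = 4), and their ranges overlapped. Mettl16, at 422 ± 10.9 normalized counts per kb, lay above Ahcyl1 (372 ± 20.5), Mtrr (369 ± 17.9) and Mtr (325 ± 19.7), and Ahcyl2 was lowest at 219 ± 32.7. This order depends on the length used. Per kb of the longest transcript, Mettl16 in Prmt5-null iGBs (463 ± 11.9) lay below Ahcyl1 (644 ± 35.4) and Mtrr (497 ± 24.0), Mat2a (2428 ± 179) and Ahcy (1947 ± 244) still overlapped, and Ahcyl2 (774 ± 116) was above Mtr (334 ± 20.3), which was lowest. Per kb of the transcript with the longest coding sequence, a choice made after seeing the data, Mat2a (2933 ± 216) did not overlap Ahcy (1947 ± 244, without its copies), Mettl16 reached 2810 ± 72.5, and Mtr was again lowest. In controls Mat2a was highest and Ahcy next on all 3 lengths when the copies of Ahcy were left out, an order that turns when their reads are added, and Mtr, at 286 ± 17.3 normalized counts per kb, had the lowest mean on both transcript lengths, overlapping Mettl16 (299 ± 17.8) on that of the longest transcript.

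Balances between partners were then read within each library, where the size factor cancels. The ratio of Mat2b to Mat2a was 0.261, 0.316, 0.305 and 0.277 in Prmt5-null libraries, and 0.200, 0.231, 0.224 and 0.230 in control libraries. The ratio was above that of any control in each Prmt5-null library, and the group means of its log2 differed by 0.39. The ratio of Mettl16 to Mat2a was 0.655, 0.800, 0.666 and 0.725 against 0.332, 0.309, 0.383 and 0.379. This pair was the furthest apart of the 5 ratios, with a log2 difference of 1.02 made up of a higher Mettl16 and a lower Mat2a.

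The ratio of Ahcyl2 to Ahcyl1 was 1.46, 1.91, 1.4995 and 1.54 in Prmt5-null libraries and 0.819, 0.917, 1.21 and 0.819 in controls, a log2 difference of 0.78. All Prmt5-null libraries lay above all controls, among which library CTRL-10596 was the highest. The ratio of Mtrr to Mtr was 0.625, 0.733, 0.726 and 0.698 against 0.783, 0.886, 0.884 and 0.753, also without overlap, with a log2 difference of -0.25. Neither Mtrr nor Mtr was called, and each overlapped between genotypes. The ratio of Ahcyl1 to Ahcy overlapped between genotypes, from 0.402 to 0.579 in Prmt5-null and from 0.475 to 0.563 in control libraries. These ratios are descriptions and carry no test. Of single tested genes, 19.8% did not overlap, and the share among ratios of other gene pairs was not computed. Ratios that hold Mat2a, Mettl16 or Ahcyl2 use the same values as the calls of those genes and add no separate result.

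Library PRMT5-10618 was the most extreme Prmt5-null library for several of the 9 genes. It had the lowest Mat2a, Ahcy, Mtr and Mtap and the highest Ahcyl2 of the 4, and it also stood at the end of the second principal component of all genes with a mean above 50 (31.8% of the variance, score 31.2). Without it the log2 fold change was -0.34 for Mat2a and 0.48 for Ahcyl2, and both were still called by limma (adjusted p = 0.0139 and 0.00564, within ranges from 6.35e-05 to 0.0244 and from 2.33e-05 to 0.0217 over the 19 alternatives of each gene).

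The genes whose profile over the 8 libraries was most like that of Mat2a and of Mettl16 were looked up among 13299 other genes with a mean above 50, by the root mean square difference of log2 levels centred on their mean. For Mat2a these were Cops6 (0.032), Pim3 (0.032) and Gm4799 (0.047), with log2 fold changes of -0.38, -0.38 and -0.42. For Mettl16 they were Exoc4 (0.030), Ei24 (0.035) and Ccng1 (0.053), with log2 fold changes of 0.62, 0.59 and 0.59. Exoc4, for example, had 9426, 9863, 9927 and 10154 normalized counts in Prmt5-null libraries and 6274, 6169, 6520 and 6684 in controls.

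The pathways that feed the cycle or draw on it were summarized by the same fit. Of 94 tested genes in these lists other than the 9, 6 were called higher and 9 lower, next to 13.8% of all tested genes in either direction, with a median log2 fold change of -0.05. The 9 lower calls became 4 without PRMT5-10771 and 5 without CTRL-10597. In methionine uptake, Slc7a5, the transporter of large neutral amino acids including methionine, had 4301, 3577, 3885 and 4052 normalized counts in Prmt5-null libraries and 6965, 5649, 5330 and 6566 in controls. The 2 genotypes did not overlap, with a log2 fold change of -0.63 (adjusted p = 0.00151 from limma). Its partner Slc3a2 fell from 3402 ± 259 to 2506 ± 111 (SD, n = 4 each; log2 fold change -0.44, adjusted p = 0.00334 from limma). In the same list of 6, Bmt2, listed as B630005N14Rik and known as the SAM sensor SAMTOR, rose by 0.48 on the log2 scale (adjusted p = 0.0362 from limma), a call that was lost without any 1 of 5 libraries, with an adjusted p of up to 0.109, and made in 14 of 18 placements of the experiments as a block. The most abundant gene of that list, Slc38a2, had 5444 ± 934 and 6796 ± 361 normalized counts and was not called (adjusted p = 0.0657 from limma).

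Of 9 genes that supply folate units for methionine synthase, 2 were called lower, both serine hydroxymethyltransferases. Shmt2, the mitochondrial form and the most abundant of the list, fell from 10983 ± 739 to 7538 ± 809 normalized counts (SD, n = 4 each; log2 fold change -0.55, adjusted p = 0.00209 from limma). Shmt1, the cytosolic form, fell by 0.34 on the log2 scale (adjusted p = 0.0302 from limma); leaving out any 1 of 5 libraries lost this call, with 0.0981 as the highest adjusted p when PRMT5-10771 was left out. In the polyamine branch, 2 of 10 genes were called lower, Amd1 (log2 fold change -0.31, adjusted p = 0.0342 from limma) and its intronless copy Amd2 (-0.40, adjusted p = 0.0268). Leaving out any 1 of 6 libraries lost the call of Amd1, namely any but PRMT5-10770 and CTRL-10596, and leaving out PRMT5-10617, PRMT5-10618, PRMT5-10771 or CTRL-10597 lost that of Amd2, with the highest adjusted p of 0.0911 and 0.0785 from limma without CTRL-10597. With the experiments as a block, Amd1 was called in 13 of 18 placements, Shmt1 in 16 and Amd2 in 18. Odc1, the most abundant of the branch and its first enzyme, had 12855, 12843, 20170.3 and 19001 normalized counts in Prmt5-null libraries and 23228, 20038, 22722 and 18912 in controls, and was not called (adjusted p = 0.0865 from limma). Gss, the second enzyme of glutathione synthesis, was the 1 called of 6 genes in transsulfuration and glutathione (log2 fold change 0.42, adjusted p = 0.00925 from limma), whereas Gclm, the most abundant, had 21426 ± 3648 and 21408 ± 2029 normalized counts.

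**Figure D3:**
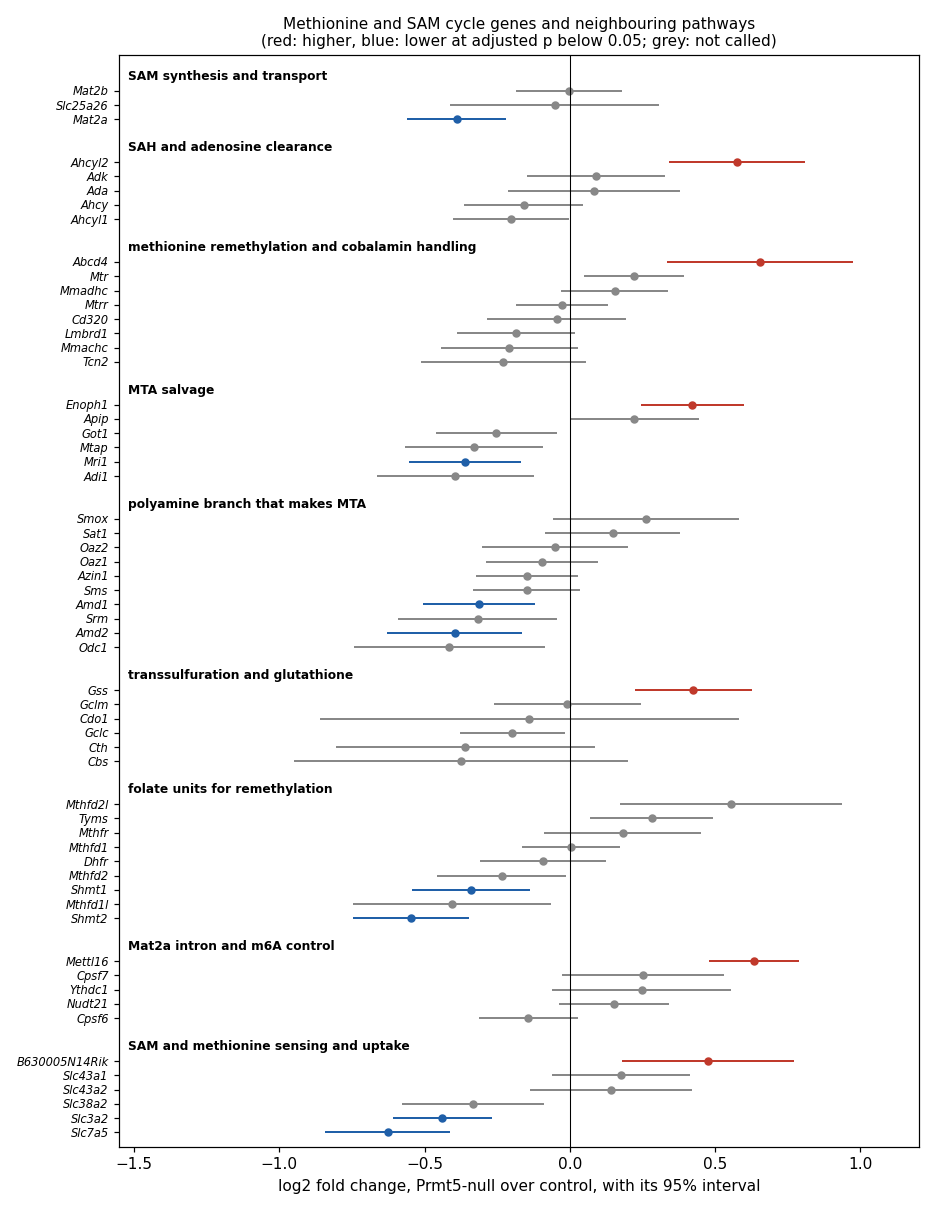
Log2 fold change (Prmt5-null over control, horizontal axis) with its 95% interval from limma for tested genes of 9 of the 12 pathway lists, sorted within each list. Red genes were called higher and blue genes lower at an adjusted p below 0.05, and grey genes were not called; Mat2a lies at -0.39, Mettl16 at 0.63 and Ahcyl2 at 0.58.

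Lists of methyltransferases and of N6-methyladenosine genes were read last, beside the 13.8% called among all tested genes. Of 24 DNA and histone lysine methyltransferases, Ezh2 (log2 fold change 0.44, adjusted p = 0.00709 from limma) and Dnmt3a (0.34, adjusted p = 0.0199; up to 0.0724 when PRMT5-10771 was left out, and above the threshold for 3 of the 8 libraries) were called higher and none lower, and Dnmt1, the most abundant, had 23937 ± 967 and 23624 ± 754 normalized counts. Of 14 genes of the N6-methyladenosine writer complex, readers and erasers, 1 was called, Ythdc2, lower by a log2 fold change of -0.64 (adjusted p = 0.00401 from limma), and the most abundant, Virma (listed as 1110037F02Rik), was lower in 4 of 4 libraries without passing the test (6865 ± 204 and 7620 ± 165 normalized counts; adjusted p = 0.138 from limma). Of 7 tested small molecule methyltransferases, 1 was called, Gamt, a low gene at 58.8 ± 4.38 and 92.5 ± 7.28 normalized counts (log2 fold change -0.64 on the log2(normalized count + 1) scale, adjusted p = 0.0257 from limma; up to 0.0688 when PRMT5-10771 was left out, and above the threshold for 4 of the 8 libraries). Icmt was the most abundant of that list, with 2367 ± 99.8 and 2452 ± 189.

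Given the role of intron retention in SAM synthesis, the 5 deposited rMATS tables of alternative splicing were searched for the 9 genes. They list 1918 events in 1519 genes, at most 1 event of a type for each gene, and none belongs to Mat2a or to any of the other 8. Among genes with a mean above 50, 11.4% have an event, and all 9 genes are above that mean. The tables hold events that the authors kept as significant, so the absence of Mat2a from the 337 retained introns does not give the level of its last intron in either genotype. Among the 100 genes of the pathway lists other than the 9, 15 have an event, among them Abcd4, Shmt1, Cpsf7, Ezh2 and Ythdc2 (named here after their presence was seen). The level of Abcd4 that rose and the level of Ythdc2 that fell are therefore sums over transcripts whose splicing was also listed.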

How the data were processed

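The authors trimmed reads (Trimmomatic 0.32), aligned them to mm10, the GRCm38 build (STAR 2.3.0e), counted uniquely mapped reads on the exons of Ensembl genes (featureCounts 1.4.4) and deposited a normalized signal, that is, counts over a size factor for the library (DESeq2 1.14.1 in the submitters' processing notes). Their rMATS tables hold p-values, FDR values and differences that were not used here; their inclusion levels and reads do not name libraries.

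In each library 100% of the deposited values were whole multiples of the smallest (tolerance 0.001 reads), which gave the reads. Genotypes were compared on log2(normalized count + 1) by limma 3.58.1 under R 4.3.3 (lmFit, then eBayes, trend allowed), for 16250 genes with a mean of at least 10, with Benjamini-Hochberg adjustment over all of them and a call at an adjusted p below 0.05. On the recovered reads, edgeR 4.0.16 called 2274 genes and DESeq2 1.42.0 called 3075. In simulated counts with a dispersion of 0.01 and 200 changed genes, limma called 94.0% of those changed 1.5-fold and 10 unchanged genes. Genes were drawn independently with the same dispersion and no experiment effect, and changes were placed in genes with a mean above 50. These shares therefore do not carry over to the real libraries, whose spread was not simulated. No exact permutation p of 4 against 4 can be under 0.0286. Within a genotype, pairs of libraries differed by at least 25.1 times the variance of counting alone over genes with a mean above 50. Lengths, transcripts and 3′ UTR sequences came from GENCODE vM21, which differs from the annotation on which the authors counted. The levels per kb and the shares of exonic positions therefore rest on exons that may differ from those counted. Copies were sought with blastn at 95% identity.

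The members and the gene lists were chosen with earlier results of these data known. Named by rule are the 9 members, Prmt5 and the most abundant gene of each list. From each pathway list, up to 3 called rises and 3 called falls with the largest changes are named. So are the 3 genes closest in profile to Mat2a and to Mettl16. Outside this rule, Slc25a26, Adk, Ada, Ythdc1, Nudt21 and Cpsf7, not called, and Mat1a, Bhmt and Bhmt2, not tested, are named as well. Some cell markers, gene copies and genes with a splicing event are also named outside it. The cultures came from 2 experiments, but the labels do not say which library is from which. The block was fitted in 18 placements, each with 2 libraries of each genotype per experiment. Unequal placements were not fitted.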

Additional observations from a re-analysis of the deposited data

Results flagged for a closer look

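No library stood far enough from the other 3 of its genotype to be singled out. This was checked by the gap to the nearest library over the range of the 4 in 30 groups of 4 values, namely the 9 genes, Prmt5 and the 5 ratios in each genotype. Chance would be expected to single out about 1 in 20 such groups.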

How the results depend on the processing

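Over 19 alternatives each (other pseudocounts, filters, scalings and tools, each library left out, and the experiments as a block), Mat2a, Ahcyl2 and Mettl16 kept their direction and were called in all 19, with log2 fold changes from -0.42 to -0.34, from 0.48 to 0.64 and from 0.59 to 0.66. In the main fit, at least 1.5-fold left 567 genes higher and 486 lower in the whole table. It left 1 and 0 of the 9 genes, and 1 and 3 of the other pathway genes. Mat2a (-0.39) and Ahcyl2 (0.58) did not reach it there. Ahcyl2 did pass 1.5-fold narrowly with edgeR (0.5857) and DESeq2 (0.5857). It also passed without PRMT5-10617 (0.61), PRMT5-10770 (0.64) or CTRL-10596 (0.63). An adjusted p below 0.01 left 467 and 504 genes in the whole table and 3 and 4 of the other pathway genes. DESeq2 called 2 of the 9 genes lower, since Mtap (-0.33, adjusted p = 0.0347) passed, and Mtr (0.22, adjusted p = 0.044) passed as a rise. It also called 2 genes of remethylation, 4 of MTA salvage, 4 of folate units and 2 of the N6-methyladenosine list. With the experiments as a block, Mtap (-0.33) was called in 4 of the 18 placements fitted, with the lowest adjusted p at 0.0282 from limma. This made 2 lower genes the highest number. Among named pathway genes the block lost the calls of Amd1, Bmt2 and Shmt1 in some placements. The log2 fold change of Mat2b, near 0, turned to 0.0060 with quantile normalization, 0.00047 with edgeR and 0.00013 with DESeq2. The causes were not tested.

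With each library left out, the whole table had from 639 to 1144 genes higher and from 735 to 1227 lower, the 9 genes from 1 to 2 lower, and the other pathway genes from 4 to 11 lower. Mat2b ranged from -0.056 to 0.038 and Mtap from -0.41 to -0.25. Called genes ranged from 1 to 4 in MTA salvage, 0 to 3 in the polyamine branch, 1 to 3 in folate units, 0 to 1 in small molecule methyltransferases and 1 to 3 in DNA and histone lysine methyltransferases. Fewer libraries give each test less to rest on; why single libraries mattered more was not tested.

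Levels per kb in controls depend on the length. With the longest transcript, and with the transcript of the longest coding sequence (added after seeing the data), they were 3177 and 3837 for Mat2a, 966 and 1220 (1219.6) for Mat2b, 2164 and 2164 for Ahcy, 744 and 744 for Ahcyl1, 516 and 517 for Ahcyl2, 506 and 506 for Mtrr, 286 and 286 for Mtr, 954 and 954 for Mtap, and 299 and 1814 for Mettl16. The ratios without each library in turn, also added after seeing the data, kept their direction where the genotypes did not overlap. Leaving out a library cannot turn a ratio without overlap, so this outcome was fixed in advance and is no check of these ratios. Depth was no limit for the 9 genes, with at least 1625 reads each per library. The limits lie in the 4 mice per genotype, in sums over transcripts and cell types, in reads shared with copies of Ahcy and Mat2a, and in experiments that cannot be assigned to libraries. RNA levels say nothing of enzyme activity or of SAM, which were not measured here.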
